A study of Mus musculus with 8 samples.

Results

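The 10 genes described here encode the 5 subunits of the transcription factor NF-kB (Nfkb1, Nfkb2, Rel, Rela and Relb) and 5 proteins of the I-kappaB family that bind them (Nfkbia, Nfkbib, Nfkbie, Nfkbiz and Bcl3). They were taken as a family by gene name and not by a rule on measured values, although earlier results of these data were known when the family was chosen, and all 10 were among the 18603 genes tested. The arrays carry 21 different probes for them.

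NF-kB is a dimer of Rel-family proteins. In a resting cell it is held in the cytoplasm by inhibitors of the I-kappaB family, and a stimulus that activates the I-kappaB kinase leads to degradation of the inhibitor, after which the dimer enters the nucleus and switches on genes of inflammation and survival. Several subunits and inhibitors are themselves targets of NF-kB, so that a stimulus also renews its own brake. In macrophages Card9, an adaptor protein, carries the signal of fungal cell wall receptors such as Dectin-1 to the I-kappaB kinase. Zymosan, a preparation of yeast cell wall, is a ligand of these receptors.

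RNA of zymosan-treated peritoneal macrophages from wild-type mice (wt) and mice lacking Card9 (Card9-/-) was hybridised to one-colour Agilent arrays, 4 per group. In both groups mice had received 1 ml of 3% thioglycolate intraperitoneally, an irritant that draws leukocytes into the cavity, and peritoneal cells were collected 4 days later. Cell pellets came from 4 or 5 mice per group, red cells were lysed, and the cells that adhered after 3 h in culture were kept. Zymosan was given in every sample, at 500 mg/kg intraperitoneally for 4 h, so the arrays compare genotypes under treatment and hold no untreated control. The sources used here do not give the mouse strain, age or sex, which part of Card9 was deleted, or whether an array stands for 1 mouse or a pool. The p-values therefore measure the spread between these samples only, which may be technical.

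On each array 47.8% to 56.5% of 59305 spots were well above background and none was saturated. Card9 itself, on its brighter probe, gave a signal of 4.75, 38.2, 1058 and 561 on wt replicates 1 to 4 and of 3.60 to 11.9 on the Card9-/- arrays. It was detected above background on 3 wt arrays and on none of the Card9-/- arrays, and the library labelled wt replicate 1 was thus without detectable Card9. The Y-linked genes Eif2s3y, Ddx3y and Uty were detected on all 4 Card9-/- arrays and on no wt array, while Xist was detected on all 4 wt arrays and on no Card9-/- array. Sex as marked by these genes and genotype cannot be told apart. All 4 wt arrays and Card9-/- replicate 4 lay on slide 1, Card9-/- replicates 1 and 3 on slide 2, and Card9-/- replicate 2 on slide 3. A level below is the log2 signal minus the array's 75th percentile of log2 signals over all non-control spots. Levels of wt replicates 1 and 2 correlated at 0.985, against 0.82 to 0.92 for the other wt pairs and 0.86 to 0.97 within Card9-/-. The 4 wt arrays were thus not equally distinct from one another. The mean level of 9 macrophage markers was 0.11 and 0.27 on the library labelled wt replicate 1 and on wt replicate 2, 5.42 and 4.21 on wt replicates 3 and 4, and 1.42 to 1.92 on the Card9-/- arrays. The mean over 7 markers of resident peritoneal macrophages followed the same split, at -2.39, -2.10, 5.43 and 3.52 in wt and -1.43 to 0.38 in Card9-/-. The mean over 14 T cell markers was 0.47 to 1.01 in wt and 1.56 to 2.56 in Card9-/-, and that over 9 natural killer cell markers was -1.32 to -0.43 and 0.02 to 2.63. All 14 and all 9 had a higher mean in Card9-/-, although none passed the adjusted test. Red cell markers, 6 of 8 tested, averaged -0.64 to 3.77 in wt and 2.96 to 7.51 in Card9-/-. B cell markers, 9 of 10 tested, averaged 2.78, 2.44, 1.26 and 2.34 on wt replicates 1 to 4 and 2.75 to 3.05 in Card9-/-.

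Each probe is a 60-base oligonucleotide. Those printed here cross an exon junction in the mm9 genome, as their genomic span exceeds their length, and they are shown because they read genes on which the comparison below turns or, for Rela, because the junction probe and the main probe differ in which arrays are high. For Nfkb2 the probe lies at chr19:46386146-46386285 (plus strand), for Rela at chr19:5645363-5645529 (plus strand), for Nfkbia at chr12:56590945-56591440 (minus strand), and for Nfkbib at chr7:29544167-29544848 and chr7:29546905-29547054 (minus strand). The first Nfkbib probe starts at base 1197 of its transcript and the second at base 497.
Nfkb2 junction probe: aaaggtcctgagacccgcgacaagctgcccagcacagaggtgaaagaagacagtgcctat
Rela junction probe: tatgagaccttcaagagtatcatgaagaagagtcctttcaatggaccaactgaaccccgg
Nfkbia probe: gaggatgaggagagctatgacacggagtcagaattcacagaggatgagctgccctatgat
Nfkbib probe from base 1197: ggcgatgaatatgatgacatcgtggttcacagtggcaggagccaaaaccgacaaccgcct
Nfkbib probe from base 497: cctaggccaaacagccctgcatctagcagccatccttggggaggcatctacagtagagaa

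The comparison asked whether macrophages without Card9 held different amounts of the RNAs for NF-kB and its inhibitors after zymosan. None of the 10 genes passed the test (limma, adjusted p of at least 0.586 for each), against 0.0269% of all genes tested, or 5 of 18603, that passed in either direction. These 5 included the sex-linked genes Eif2s3y, Ddx3y and Uty, higher in Card9-/-, and Xist on its brighter probe, lower (limma adjusted p of at most 0.0013). At an unadjusted p under 0.05, 3 of the 10 were lower in Card9-/- (4.59% of all genes) and none was higher (2.63%). The genes with the largest differences were the 3 cytoplasmic inhibitors Nfkbia, Nfkbib and Nfkbie and the subunit precursor Nfkb2, whose levels on all 4 Card9-/- arrays lay below those on all 4 wt arrays. Such a separation in the lower direction was found for 3.69% of all genes tested, and in the higher direction, which none of the 10 showed, for 1.53%. Full separation of 4 from 4 arrays fixes the exact two-sided permutation p at 0.0286, the smallest that 70 assignments allow, so that p adds nothing to the separation, and in the 6 other genes it was 0.114 to 0.600. The separation depended on the scaling, since with quantile normalization and in the values of the authors' deposited series matrix 0 of the 10 genes separated. With quantile normalization the highest Card9-/- and lowest wt values were 12.400 and 12.397 for Nfkbie and 11.84 and 11.79 for Nfkb2. They were 12.609 and 12.405 for Nfkbib and 16.69 and 16.16 for Nfkbia. Across the 10 genes, 9 had a lower mean in Card9-/-, as had 56.3% of all genes, and the median difference was -0.64 against -0.09 over all genes tested. With quantile normalization these medians were -0.24 and -0.01. The 10 genes were brighter on average, with array means of 4.34 to 5.89 against 0.09 to 0.38 over all genes tested. Shares and medians of all genes, here and below, were not matched for signal level. Without wt replicate 3 the median of the 10 was -0.42. Within slide 1 the single Card9-/- array, replicate 4, lay below all 4 wt arrays in 9 of the 10 genes, all but Nfkbiz, as it did in 30% of all genes tested, with differences of -1.01 for Rela, -1.23 for Relb and -1.37 for Bcl3 that were larger than over all arrays. In these bulk samples, fewer cells of a type and less RNA per cell cannot be told apart.

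**Figure D1:**
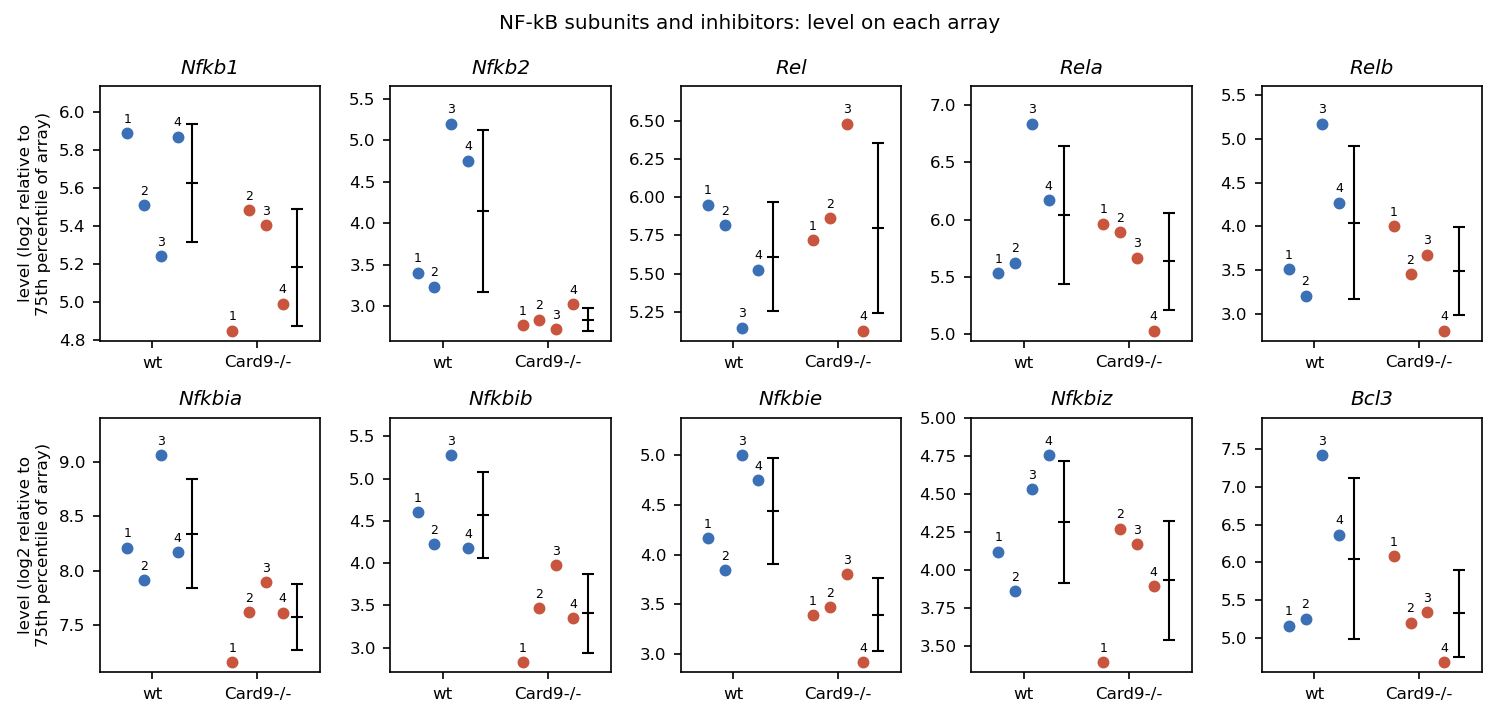
Level of each of the 10 genes on each array, as log2 signal relative to the array's 75th percentile, with an axis of its own for each gene. Points are arrays with their replicate numbers (blue wt, red Card9-/-), and bars show the group mean and SD (n = 4). In Nfkb2, Nfkbia, Nfkbib and Nfkbie all Card9-/- points lie below all wt points.

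Nfkb2 encodes p100, which acts as an inhibitor until it is processed to the subunit p52 of the alternative NF-kB pathway. Its level on wt replicates 1 to 4 was 3.40, 3.23, 5.20 and 4.75. On Card9-/- replicates 1 to 4 it was 2.77, 2.84, 2.72 and 3.02. The Card9-/- arrays lay within a narrow band under all wt arrays, while the wt arrays fell into a lower and a higher pair. The wt mean was 4.15 ± 0.98 (SD, n = 4) and the Card9-/- mean 2.84 ± 0.13 (SD, n = 4), a difference of -1.31 (SE 0.49) that is 2.48-fold on the linear scale. It did not pass the test (limma adjusted p = 0.612, unadjusted 0.0245). Without wt replicate 3 the difference was -0.96, and within slide 1, where a single Card9-/- array stood against 4 wt arrays, it was -1.12. With array weights it was -0.56. The main probe lies at chr19:46386440-46386499. The junction probe shown above gave 2.82, 2.38, 3.70 and 3.38 in wt and 2.05, 2.06, 2.57 and 2.06 in Card9-/-. It was also lower, by 0.88 on the log2 scale (limma adjusted p = 0.723), but Card9-/- replicate 3 lay above wt replicate 2, so its groups overlapped.

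Nfkb1 encodes p105, the precursor of the subunit p50, and is measured by 3 probes. The main probe (chr3:135247898-135247958) gave 5.89, 5.51, 5.24 and 5.87 in wt. It gave 4.85, 5.48, 5.40 and 4.99 in Card9-/-. The groups overlapped, and the difference of -0.45 (SE 0.34, limma adjusted p = 0.841) was 0.049 with quantile normalization and 0.0022 with the mean of the gene's probes, so its sign was not stable. The probe from base 1733 differed the other way. Its levels were 4.64, 4.02, 1.80 and 2.24 in wt and 3.48, 3.91, 4.23 and 3.30 in Card9-/-, so that wt replicates 3 and 4 were the lowest of all 8 arrays. The difference was 0.55 (limma adjusted p = 0.901). The third probe, from base 2747, differed by -0.10. Base numbers of these probes count along different transcripts and do not order them. On the minus strand the probe from base 1733 (chr3:135275144-135275203) lies farthest upstream. That from base 2747 (chr3:135254550-135254609) comes next, and the main probe lies farthest 3′.

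Rela encodes p65, the subunit with a strong activation domain that forms the classical heterodimer with p50. Its level was 5.53, 5.63, 6.84 and 6.17 on wt replicates 1 to 4. It was 5.96, 5.89, 5.67 and 5.03 on Card9-/- replicates 1 to 4. The Card9-/- arrays spanned the lower pair of wt arrays and the difference was -0.40 (SE 0.41, limma adjusted p = 0.886). It was -0.14 without wt replicate 3, 0.13 with quantile normalization, 0.12 with array weights and 0.065 in the authors' series matrix. The junction probe read -1.18, -1.56, -2.37 and -1.92 in wt and -2.78, -1.11, -2.11 and -2.94 in Card9-/-. On this probe wt replicates 3 and 4 were the lowest of the wt arrays, whereas on the main probe (chr19:5648070-5648129) they were the highest.

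Rel encodes c-Rel, a subunit abundant in leukocytes and needed for transcription of Il12b in mouse macrophages. It was the only one of the 10 genes with a higher mean in Card9-/-. Its level (chr11:23637051-23637110) was 5.95, 5.82, 5.15 and 5.53 in wt and 5.72, 5.86, 6.48 and 5.13 in Card9-/-. Card9-/- replicate 3 was the highest and Card9-/- replicate 4 the lowest of the 8 arrays, so the spread within Card9-/- covered that of wt. The difference was 0.19 (SE 0.39, limma adjusted p = 0.954), and -0.04 without Card9-/- replicate 3 and -0.48 within slide 1. The second probe, from base 2524, differed by 0.24.

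Relb encodes the partner of p52 in the alternative pathway. Its level (chr7:20191722-20191781) was 3.51, 3.21, 5.17 and 4.27 in wt. It was 4.00, 3.46, 3.67 and 2.81 in Card9-/-. As for Nfkb2, wt replicates 3 and 4 were the highest arrays, but here the Card9-/- arrays overlapped the lower wt pair. The difference was -0.56 (SE 0.50, limma adjusted p = 0.864), -0.18 without wt replicate 3 and 0.27 with array weights. The probe from base 1767 differed by -0.76 and that from base 785 by 0.24.

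Nfkbia encodes I-kappaB-alpha, the inhibitor that is degraded first after a stimulus and resynthesised under NF-kB itself. A single probe measured it, shown above, with levels of 8.21, 7.91, 9.06 and 8.17 on wt replicates 1 to 4. On Card9-/- replicates 1 to 4 the levels were 7.16, 7.62, 7.89 and 7.61. The highest Card9-/- array lay only just under the lowest wt array. The wt mean was 8.34 ± 0.50 (SD, n = 4), and that of the Card9-/- arrays 7.57 ± 0.30 (SD, n = 4). The difference of -0.77 (SE 0.37), or 1.70-fold, had a 95% interval of -1.60 to 0.07 and did not pass the test (limma adjusted p = 0.723, unadjusted 0.069). It was -0.72 within slide 1, -0.38 with quantile normalization, -0.52 without wt replicate 3 and -0.36 with array weights.

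Nfkbib encodes I-kappaB-beta, a slower inhibitor that is also known to steady p65 and c-Rel dimers on DNA. The probe from base 1197 gave 4.60, 4.22, 5.28 and 4.17 in wt. It gave 2.83, 3.47, 3.97 and 3.35 in Card9-/-. All Card9-/- arrays lay below all wt arrays, and here wt replicate 4 was the lowest of its group. The wt mean was 4.57 ± 0.51 (SD, n = 4), and that of the Card9-/- arrays 3.40 ± 0.47 (SD, n = 4). The difference of -1.16 (SE 0.40), or 2.24-fold, did not pass the test (limma adjusted p = 0.586, unadjusted 0.0168). It was -1.22 within slide 1, -0.82 with quantile normalization, -0.93 without wt replicate 3 and -0.78 with array weights. The probe from base 497 gave 1.06, 0.80, -0.18 and 0.41 in wt and -1.29, 0.44, 0.45 and -1.13 in Card9-/-. It was lower by 0.91 on the log2 scale (limma adjusted p = 0.793), with Card9-/- replicates 1 and 4 far below the rest and replicates 2 and 3 within the wt range.

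Nfkbie encodes I-kappaB-epsilon, an inhibitor that is induced later than I-kappaB-alpha and holds Rela and c-Rel dimers. Its only probe (chr17:45700000-45700059) gave 4.16, 3.84, 5.00 and 4.75 in wt. It gave 3.39, 3.47, 3.80 and 2.92 in Card9-/-. The groups came within a small gap of each other, between Card9-/- replicate 3 and wt replicate 2. The wt mean was 4.44 ± 0.53 (SD, n = 4), and that of the Card9-/- arrays 3.40 ± 0.36 (SD, n = 4). The difference of -1.04 (SE 0.39), or 2.05-fold, did not pass the test (limma adjusted p = 0.612, unadjusted 0.0245). It was -1.51 within slide 1, -0.71 with quantile normalization, -0.85 without wt replicate 3 and -0.40 with array weights.

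**Figure D2:**
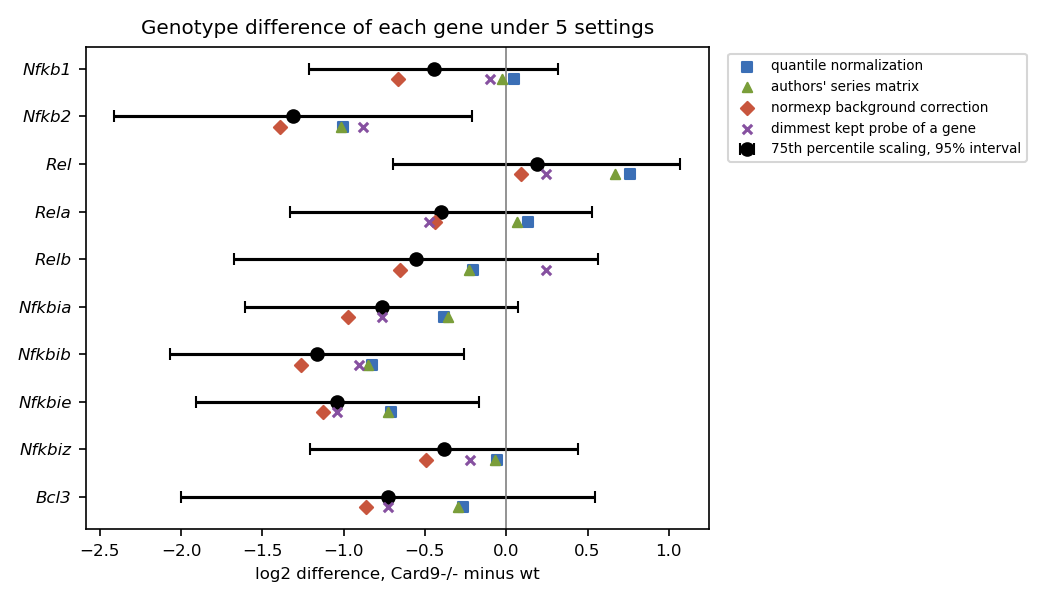
Difference in mean log2 level, Card9-/- minus wt, for each gene. Black points with bars are the differences with their 95% intervals, and coloured marks are the values with quantile normalization, in the authors' series matrix, with normexp background correction and with the dimmest kept probe. The intervals of Nfkb2, Nfkbib and Nfkbie lie below 0 without adjustment for the number of genes tested, and that of Nfkbia reaches 0.07.

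Nfkbiz and Bcl3 encode nuclear members of the family, which bind p50 or p52 on DNA and can act as coactivators. Nfkbiz, induced by Toll-like receptor signals, had levels of 4.12, 3.86, 4.53 and 4.76 in wt and of 3.40, 4.27, 4.17 and 3.90 in Card9-/- (chr16:55812091-55812150). Its groups overlapped, with a difference of -0.38 (SE 0.37, limma adjusted p = 0.870), which was 0.074 with array weights. Bcl3, which stabilises p50 dimers, had levels of 5.16, 5.25, 7.42 and 6.37 in wt and of 6.08, 5.20, 5.34 and 4.68 in Card9-/- (chr7:20393826-20393885). It had the widest spread of the 10 genes in wt, with an SD of 1.07 (n = 4). Card9-/- replicate 1 lay above both lower wt arrays, and the difference of -0.73 (SE 0.57, limma adjusted p = 0.848) was -0.27 without wt replicate 3 and 0.10 with array weights. For Nfkbiz the probe from base 1605 differed by -0.22. The Nfkbiz probe from base 1313 stood above background only on a pair of wt arrays and the Bcl3 probe from base 41 on no array, so neither was tested.

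The median wt SD of the 10 genes was 0.52, below the 0.68 over all genes tested. The wt SD was larger than the Card9-/- SD in 9 of 10, compared with 53.9% of all genes. The margin was small in Nfkb1 (0.312 and 0.310) and Nfkbiz (0.40 and 0.39). On wt replicates 3 and 4 the level was the highest of the 8 arrays in 6 of 10 (Nfkb2, Rela, Relb, Nfkbie, Nfkbiz and Bcl3), compared with 14.5%. These are the arrays with the highest macrophage markers. The arrays also differed in how probes along a transcript compared. Over 2871 transcripts with probes at least 500 bases apart, the median of the 3′-most probe minus the most upstream one, centred over the arrays, was -0.33, -0.14, 0.33 and 0.28 on wt replicates 1 to 4 and 0.23, 0.05, -0.04 and -0.34 on Card9-/- replicates 1 to 4. For the main probe of Nfkb1 minus that from base 1733, the centred value was 1.49 and 1.68 on wt replicates 3 and 4 and between -0.78 and -0.26 on the 6 other arrays. For the main minus the junction probe of Nfkb2 it was 0.63 and 0.51 on wt replicates 3 and 4. Those probes start at bases 3064 and 2850, closer than the 500 bases used above. Both arrays were also highest for the main probe minus that from base 2747 of Nfkb1, 785 of Relb and 1605 of Nfkbiz. They were not both highest for Nfkbib (1.54 and -0.15), Rel (-0.17 and 0.80), Rela (1.38 and 0.25) and base 1767 of Relb (0.30 and -0.30). The mean level of the 10 genes was 5.05, 4.85, 5.89 and 5.48 on wt replicates 1 to 4 and 4.34 to 4.91 on the Card9-/- arrays. The part of cell makeup and of this 3′ shift in the differences above was not tested.

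**Figure D3:**
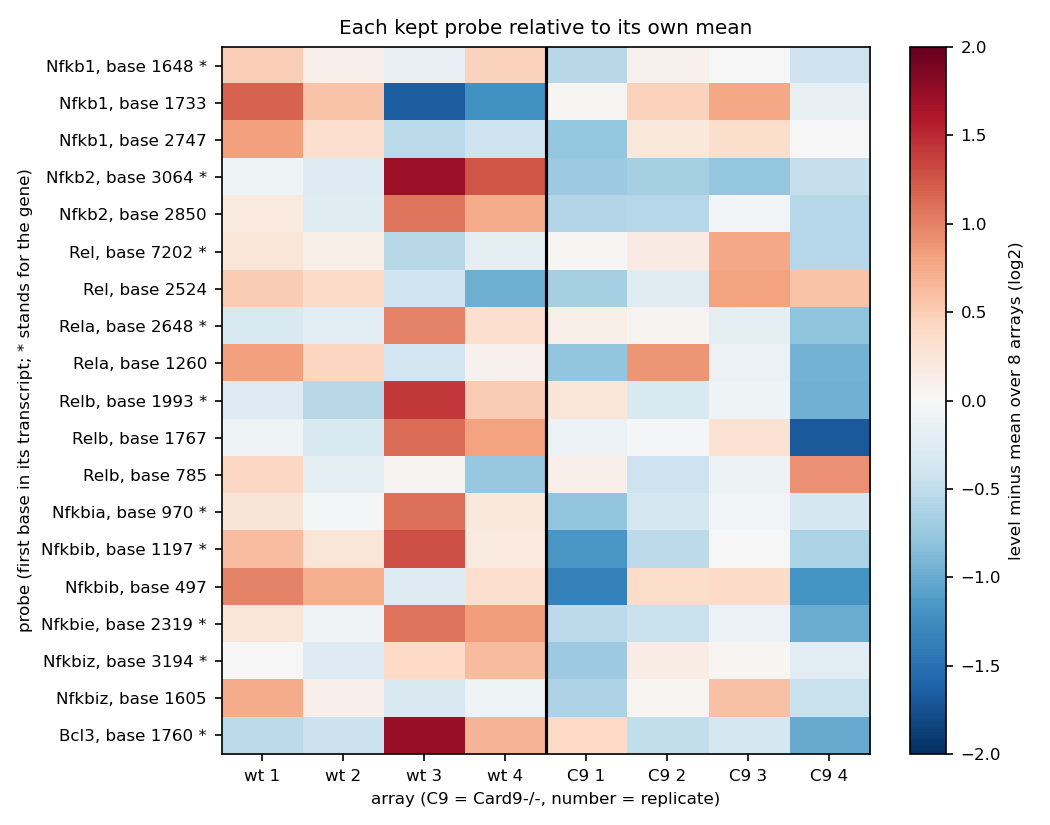
Level of each of the 19 tested probes on each array minus the probe's mean over the 8 arrays (log2, colour), named by gene and first base in its transcript, with an asterisk where the probe stands for the gene. Both Nfkb2 probes are highest on wt replicates 3 and 4, where the Nfkb1 probe from base 1733 is lowest. Base numbers of the Nfkb1 probes count along different transcripts.

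**Figure D4:**
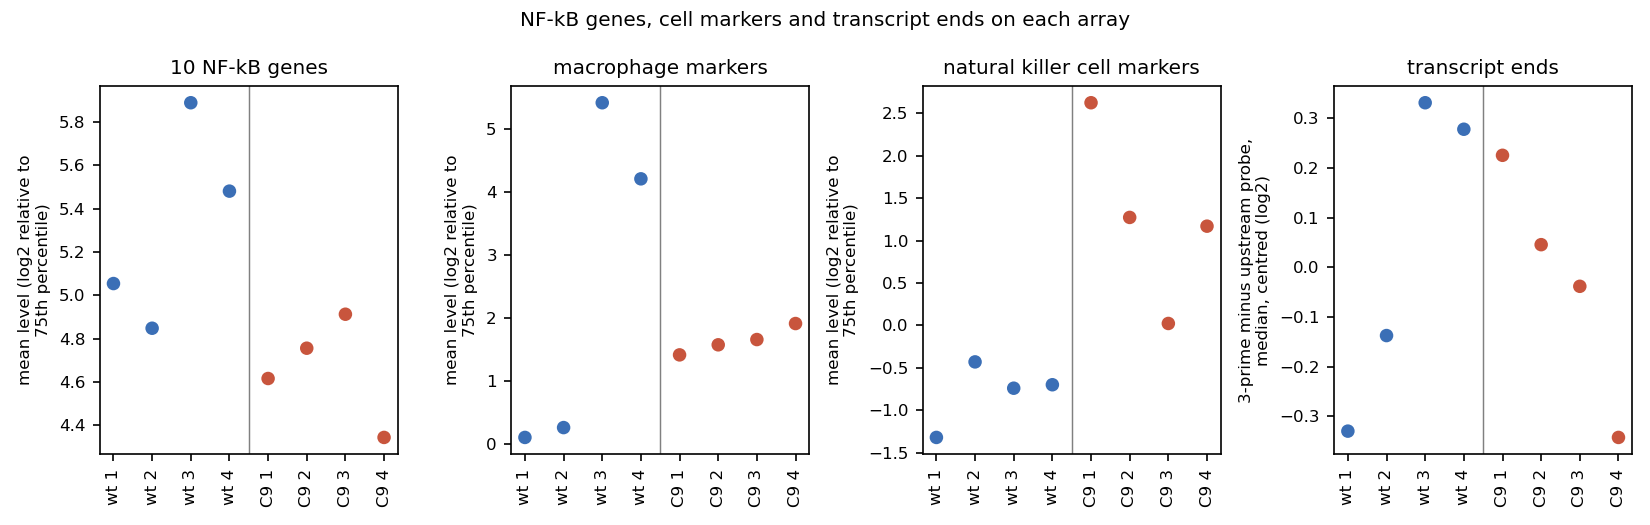
Mean level of the 10 genes, of 9 macrophage markers and of 9 natural killer cell markers on each array (log2 relative to the 75th percentile), and the centred median of 3′-most minus upstream probes (log2). Blue points are wt and red points Card9-/- arrays, without error bars as each is 1 array. On wt replicates 3 and 4 the 10 genes (5.89 and 5.48), the macrophage markers (5.42 and 4.21) and the 3′ shift (0.33 and 0.28) are all at their highest.

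The region before the transcription start is shown for the 4 genes whose groups did not overlap, and for Rel, the gene with the opposite sign, because NF-kB is known to act on the genes of its own inhibitors. The sequences are from RefSeq (GRCm38.p6), 250 bases upstream of the start, in the direction of the gene. Capitals mark matches to GGGA, any 4 bases and CC on either strand, a simple form of the kappaB motif that was searched from 250 bases before to 50 after the start. Of all 32851 windows of this kind 20.73% held a match, as did 7 of the 9 windows of these genes. Counted by gene, 7 of the 10 had an entry and 5 of these held a match, Nfkb2 having several windows. Nfkb1, Relb and Nfkbiz had no entry. The first start of Nfkb2 (chr19:46304487-46304736, plus strand) had matches 39 and 10 bases before the start. Nfkbia (chr12:55492648-55492897, minus strand) had matches 212 and 29 bases before it, and Rel (chr11:23770970-23771219, minus strand) had one 92 bases before it. Nfkbib (chr7:28766645-28766894, minus strand) and Nfkbie (chr17:45555450-45555699, plus strand) had no match in the window. A match describes the letters and not a bound site.
Nfkb2 upstream region: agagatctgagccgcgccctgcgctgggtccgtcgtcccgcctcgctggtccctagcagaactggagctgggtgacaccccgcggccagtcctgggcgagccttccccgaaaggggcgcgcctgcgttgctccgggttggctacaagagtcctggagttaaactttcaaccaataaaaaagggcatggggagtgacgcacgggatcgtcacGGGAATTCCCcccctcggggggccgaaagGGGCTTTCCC
Nfkbia upstream region: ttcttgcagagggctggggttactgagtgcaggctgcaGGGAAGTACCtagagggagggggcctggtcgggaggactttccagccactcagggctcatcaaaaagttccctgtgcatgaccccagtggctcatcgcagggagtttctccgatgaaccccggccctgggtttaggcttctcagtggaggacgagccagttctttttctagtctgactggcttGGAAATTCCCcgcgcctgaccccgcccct
Nfkbib upstream region: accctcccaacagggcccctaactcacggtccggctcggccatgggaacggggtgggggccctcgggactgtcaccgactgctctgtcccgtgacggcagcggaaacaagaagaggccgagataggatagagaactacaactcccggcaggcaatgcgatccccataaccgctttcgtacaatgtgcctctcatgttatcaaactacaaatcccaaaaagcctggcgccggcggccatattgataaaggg
Nfkbie upstream region: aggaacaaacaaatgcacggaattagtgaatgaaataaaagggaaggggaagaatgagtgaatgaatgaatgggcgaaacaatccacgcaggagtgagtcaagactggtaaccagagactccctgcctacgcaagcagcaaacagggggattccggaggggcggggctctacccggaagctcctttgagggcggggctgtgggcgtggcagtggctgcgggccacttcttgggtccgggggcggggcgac
Rel upstream region: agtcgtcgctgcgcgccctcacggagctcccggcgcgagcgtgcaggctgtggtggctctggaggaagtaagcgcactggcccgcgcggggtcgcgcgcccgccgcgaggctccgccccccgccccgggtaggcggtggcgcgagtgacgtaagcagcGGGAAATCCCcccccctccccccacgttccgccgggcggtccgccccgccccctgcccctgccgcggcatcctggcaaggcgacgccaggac
Rela and Bcl3 also held a match, that of Bcl3 lying after the start. All 3 genes with overlapping groups and an entry thus held one, as did 2 of the 4 genes with separate groups. This split comes from the same arrays and was lost with quantile normalization. No link between a match and the genotype difference can be read from it.

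Around these 10 genes, no gene of the 6 pathway lists passed the adjusted test. Among 10 other I-kappaB proteins and modulators, 6 had a lower and 4 a higher mean in Card9-/-, with a median of -0.10. The 3 with the smallest p were Nkap (-1.03, limma adjusted p = 0.702), Nkiras1 (0.78, adjusted p = 0.738) and Commd1 (-0.82, adjusted p = 0.766). Among the 20 genes of the I-kappaB kinase complex and its activators, 13 were lower and 7 higher, with a median of -0.12. Card9 itself, which no Card9-/- array detected above background, had a measured difference of -3.14 with overlapping groups (limma adjusted p = 0.689). With its Card9-/- levels raised to those of the dimmest probes above background on each array, the Card9-/- mean was 3.33-fold lower. The wt mean of -2.27 includes replicate 1, also not above background, so this is not a strict bound. Tab3, an adaptor that links the kinase Tak1 to ubiquitin chains, was higher by 0.93 (adjusted p = 0.738) and Ube2v1, a cofactor in making such chains, was lower with a difference of -0.62 (adjusted p = 0.753), both with separate groups.

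In the alternative pathway, in which p100 is processed to p52, 8 of 11 genes had a lower mean and the median was -0.50. Tnfsf13b, the cytokine BAFF, differed by -2.03 (SE 0.56, limma adjusted p = 0.534) with separate groups, and a single Card9-/- array had it above background. Traf3, which holds the pathway off by destabilising its kinase, differed by -0.60 (adjusted p = 0.792) with separate groups. Ltbr, the lymphotoxin beta receptor, differed by -1.39 (adjusted p = 0.859) with overlapping groups. Among 14 brakes on the pathway, 7 were lower and 7 higher, with a median of -0.02. Tnip1, which binds ubiquitin and the deubiquitinase A20, had levels of 4.89, 4.96, 6.97 and 6.54 in wt and of 4.57, 4.44, 3.68 and 4.15 in Card9-/-. All Card9-/- arrays were below all wt arrays, with a difference of -1.63 (SE 0.54, limma adjusted p = 0.567), or 3.09-fold. N4bp1 differed by -1.11 (adjusted p = 0.640), also with separate groups, and Zc3h12a, the RNase regnase-1, by -0.93 (adjusted p = 0.702).

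Of 30 known NF-kB target genes, 20 had a lower and 10 a higher mean in Card9-/-, with a median of -0.37. Cflar, which encodes the caspase-8 regulator c-FLIP, had levels of 4.77, 4.49, 5.35 and 5.14 in wt and of 4.41, 3.63, 4.02 and 3.67 in Card9-/-. Its groups did not overlap and the difference was -1.01 (limma adjusted p = 0.593). Il12b, the p40 chain of interleukin-12, lay the other way, at -2.22, -2.24, -1.69 and -3.85 in wt and 3.15, 0.14, -1.89 and 1.41 in Card9-/-. Card9-/- replicate 3 fell within the wt range, and the difference was 3.20 (SE 0.97, adjusted p = 0.553). Icam1, an adhesion molecule, differed by -1.33 (adjusted p = 0.628). The mean level of the 30 genes was 2.09, 2.57, 4.91 and 5.12 on wt replicates 1 to 4 and 3.15 to 3.72 on the Card9-/- arrays, which lay between the pairs of wt arrays. Of 8 genes that need I-kappaB-zeta in mouse macrophages, 3 of which are also in the list of targets, 5 were lower and 3 higher, with a median of -0.44. Beside Il12b, the smallest p-values were those of Ebi3 (-0.83, limma adjusted p = 0.738) and Csf3 (-1.39, limma adjusted p = 0.861).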

How the data were processed

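RNA of 8 samples was labelled with Cy3, 0.2 µg each, per the labels' protocols. The authors deposited scanner files holding processed signal intensity, background-subtracted by Agilent Feature Extraction 10.7.1.1 per the file headers, with mm9 probe positions. They also deposited a series matrix of log2 values with a median of 4.48, whose centring and per-array scaling are not given in the sources used here. Only its first 49670 of 56745 rows lined up with the scanner values and were used, as an alternative, and its columns did not settle which replicate of a genotype each holds. From the intensities, control spots and outlier spots were left out, log2 signals were set against the array's 75th percentile, and spots of a probe were averaged. A probe stayed in if the scanner software marked it well above background in 3 or more of the 4 arrays of a group, and the brightest kept probe stood for its gene. Symbols came from accessions for 32994 of 56605 probes, from matching symbols for 10224, from synonyms for 520 and otherwise from the files. The fit was limma 3.58.1 in R 4.3.3, with genotype as the only term, two-sided, with Benjamini-Hochberg adjustment at 0.05 over 18603 genes, and was tested on simulated data. The number of arrays limits the precision. The 10 members and all lists were chosen with earlier results of these data known. The genes named are the 10 members with their probes, the 3 genes of each pathway list with the smallest unadjusted p, the 2 genes most alike to each member (not reported here for Nfkbiz), and the label checks. Markers were lists of macrophage, resident macrophage, T, natural killer, B, neutrophil, dendritic, mesothelial and red cells. B cell, neutrophil, dendritic and mesothelial markers had medians of 0.50, -0.09, 1.18 and 0.23 for Card9-/- minus wt, with none past the adjusted test.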

Additional observations from a re-analysis of the deposited data

How the results depend on the processing

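The number of members past the adjusted test was 0 under all 21 alternatives, including each array left out in turn, and the lowest adjusted p of a member was 0.0982, for Nfkbib with array weights. The number of all genes called, 5, was 0 with probes above background on all 8 arrays (1062 at an unadjusted p under 0.05), 0 with slide as a block (1660) and 0 within slide 1 (1637), where the lone Card9-/- array was assumed to vary like the wt arrays. It was 1585 with array weights and 5 to 6 with an array left out. The median difference of the members was -0.12 with array weights (-0.08 over all genes) and -0.87 to -0.42 with an array left out. It was -0.24 with quantile normalization (-0.01 over all genes) and -0.26 in the series matrix (-0.01). With slide as a block, and also within slide 1, it was -1.07 (-0.26). The count of members lower in Card9-/- without overlap, 4 beside 3.69% of all genes, was 2 with median scaling (5.98% of all genes), 0 with quantile normalization (2.73%), 0 in the series matrix (2.55%), 9 within slide 1 (30%), 2 with the dimmest kept probe of a gene (3.56%, an alternative chosen after seeing the data) and 4 to 5 with an array left out. The sign turned for Nfkb1 with quantile normalization (0.049) and the mean of its probes (0.0022), for Rela with quantile normalization (0.13), array weights (0.12) and the series matrix (0.065), for Rel with slide as a block (-0.48), within slide 1 (-0.48) and without Card9-/- replicate 3 (-0.040, in a range of -0.040 to 0.41 with an array left out), for Relb with array weights (0.27) and its dimmest probe (0.24), and for Nfkbiz (0.074) and Bcl3 (0.10) with array weights. The cause was not tested. The differences of Nfkb2, Nfkbia, Nfkbib and Nfkbie were below 0 in all 21 alternatives. The median over all genes moved by -0.18 with median scaling, 0.12 with normexp, 0.40 without a filter on dim probes and -0.17 with slide as a block. Deviations of same-numbered arrays correlated at -0.13, 0.25, -0.12 and -0.28, which does not show that the numbers pair the samples. These values cannot exclude a pairing either, and the sources used here do not state one. With a replicate block 3 genes and 0 members were called. With wt replicates 1 and 2, the most alike arrays of a group, averaged, 5 genes and 0 members were called. The median of the members was then -0.82, and 4 were lower without overlap (4.74% of all genes). The number of arrays, 4 a group, limits the precision, and the 95% interval of Rel, for example, ran from -0.69 to 1.07.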

Other observations

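For each member but Nfkbiz, the other genes whose centred levels over the 8 arrays were closest were listed by root mean square difference (RMS, log2), which describes likeness and not a shared function. Rela lay closest to Ndufa10 (0.066) and Kctd9 (0.068), Rel to Lpgat1 (0.089) and Cpne1 (0.099), and Bcl3 to Usp3 (0.10) and Dnajc10 (0.15). Relb lay closest to Slc6a6 (0.11) and Zdhhc9 (0.14), and Nfkbia to Tomm6 (0.13) and Midn (0.14). Nfkbie lay closest to Sde2 (0.14) and Flii (0.19), Nfkb1 to Eaf1 (0.17) and Serbp1 (0.17), Nfkbib to Hsd17b12 (0.22) and Mef2a (0.25), and Nfkb2 to Scarb1 (0.24) and Ttl (0.24). Among the members, Relb and Bcl3 were the closest pair (0.21), and Nfkb2 and Rel the farthest (1.18). The inhibitors Nfkbia and Nfkbib lay 0.25 apart.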
